A study of Homo sapiens with 6 samples.

Results

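Integrins are receptors of 1 alpha and 1 beta chain that hold cells to the matrix, and focal adhesions are the protein plaques that tie their short inner tails to actin. The genes described here are 38 named integrin subunits and focal adhesion adaptors, taken by symbol from the authors' deposited table of 19830 genes, and all 38 were found in it. They were measured in PANC-1, an established line of human pancreatic ductal adenocarcinoma cells, as RNA from 2 libraries of cells given SOX9 siRNA and 2 of cells given control siRNA. Each siRNA was used at 25 nM with a lipid reagent, and cells were collected after 48 hours. SOX9 is a transcription factor of duct and progenitor cells of the pancreas. The groups share the cell line, medium, reagent and time and differ in the siRNA. Wells were pooled before harvest, and no label ties the libraries of a group to separate cultures. The p-values and intervals therefore set each fold against variation estimated from these libraries only, and that variation may be technical.

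An integrin is called active once talin and kindlin bind the tail of its beta chain. Talin then links to actin directly and through vinculin, while a complex of ILK, PINCH and parvin sits on kindlin and focal adhesion kinase signals from the plaque. The alpha chain sets the ligand: collagens, laminins, or proteins with an RGD motif such as fibronectin. In pancreatic cancer cells, integrins of these classes are known for attachment to the dense collagen and laminin matrix of the tumour.

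Talin-1 and the laminin receptor chain alpha6 were lower after SOX9 siRNA, and no other member passed the test. The TLN1 call was lost (adjusted p 0.0704) when folds were centred within bins of mean count, and at a threshold of 0.01 neither gene was called. ITGA6, the alpha6 chain, fell to 63.4% of control (95% interval 50.6% to 79.6%), and TLN1, which encodes talin-1, fell to 65.5% (52.1% to 82.2%), both computed from the authors' deposited table. Of 33 members with an adjusted p, called tested here, 0 were higher and 2 were lower at an adjusted p under 0.05. Over all 14063 tested genes 1.81% were called, made up of 0.868% higher and 0.939% lower. A count of 2 is too small to set the members apart from that background. At an unadjusted p under 0.05, 3 members were higher and 4 lower, against 4.98% and 6.15% of all tested genes, or 11.1% in either direction. The median log2 fold change of the tested members was 0.04, beside -0.02 over all tested genes, with 17 positive and 16 negative. Under the same centring, 6 members with values near 0 changed sign (ITGA1, ITGB5, ITGB8, PARVA, BCAR1 and ACTN1).

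**Figure D1:**
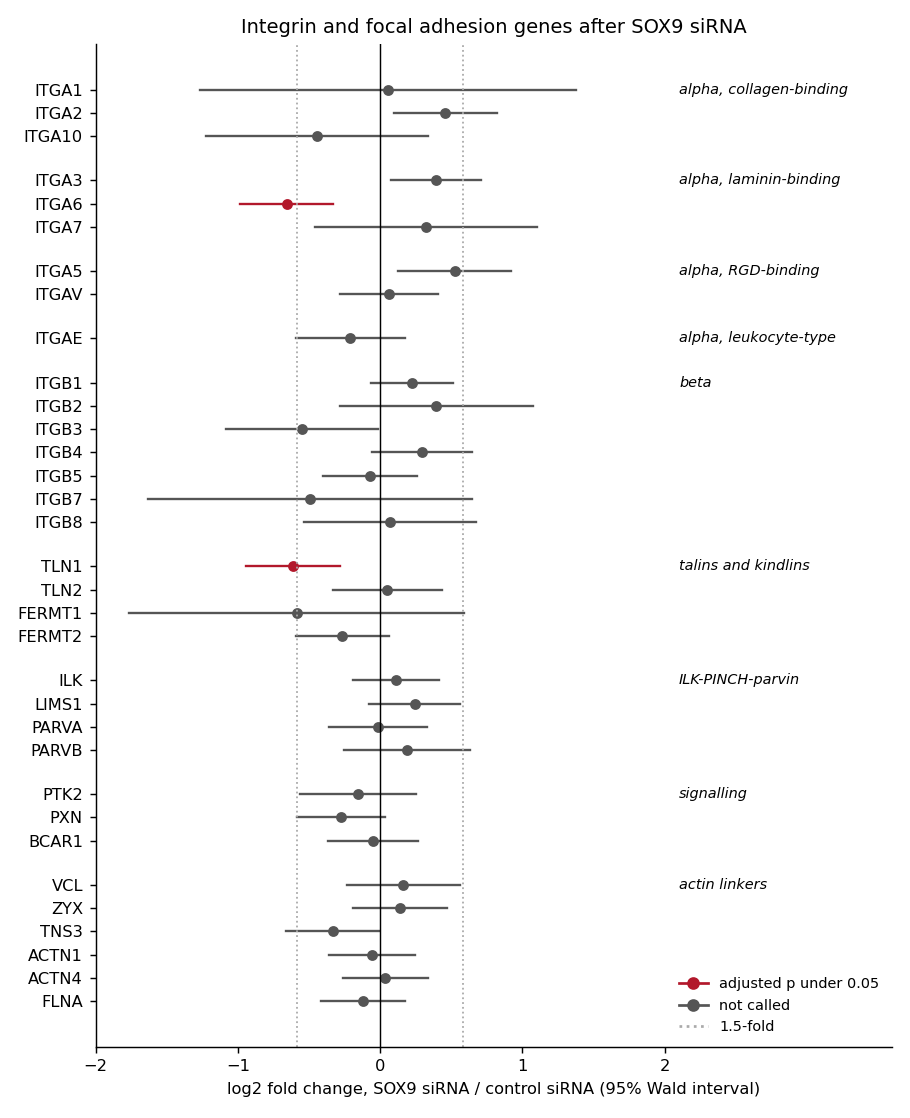
Log2 fold change (SOX9 siRNA over control siRNA) of the 33 tested members by role, as points with 95% Wald intervals. ITGA6 and TLN1, in red, are the members at an adjusted p under 0.05, and the dotted lines mark a 1.5-fold change in either direction.

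The table gives no value for a single library, so each member is described by its mean normalized count over the 4 libraries, its log2 fold change and its standard error (SE). Group levels were implied from the mean and the fold, which fix both groups when each has 2 libraries, and whether single libraries overlapped cannot be seen. Counts were not divided by transcript length and are not compared between genes as levels. The headers do not name the numerator, and folds are read as SOX9 siRNA over control because SOX9 itself was negative, with a log2 fold change of -0.84 at adjusted p 0.0643 from the authors' deposited table. SOX9 is therefore no check of the labels, and every direction here would turn if that reading were wrong. On that reading SOX9 itself was not called, and it stood at 55.9% of control (95% interval 39.2% to 79.8%). In bulk RNA, fewer cells that express a gene and less RNA per cell cannot be told apart.

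All 7 genes listed as markers of the line were tested. KRT8, KRT18 and KRT19, keratins of simple epithelium, and VIM, vimentin, had mean normalized counts from 99583 to 203350 in the authors' deposited table, while KRT7, CDH1 and EPCAM stood at 353.9, 1426 and 1699. EPCAM, an epithelial surface protein, fell, with a log2 fold change of -1.76, and the other 6 were positive and not called by the authors' deposited table. Of those, KRT8 stood at 0.55 (SE 0.18), KRT18 at 0.50 (SE 0.17) and KRT19 at 0.50 (SE 0.21) on the log2 scale. CDH1 (E-cadherin) stood at 0.63 (SE 0.77), KRT7 at 0.06 (SE 0.26) and VIM at 0.05 (SE 0.15), from the authors' deposited table. The unadjusted p of the authors' DESeq2 test was under 0.05 for KRT8, KRT18 and KRT19 and not for CDH1, KRT7 or VIM. Of 10 leukocyte markers 7 were in the table and 3 were tested with 0 calls: CORO1A, CD14 and CSF1R, at mean normalized counts of 106.5, 52.2 and 28.2 by the authors' deposited table. CD14 had a log2 fold change of 1.21 with unadjusted and adjusted p of 0.0474 and 0.440 from the authors' deposited table. PTPRC, SPI1 and LCP1 were not tested, at 2.14 to 2.28 by the authors' deposited table. Of 4 platelet markers 2 were tested and 0 called, and the 4 endothelial markers were not tested, at mean normalized counts of 0.55 to 3.87 by the authors' deposited table. The part of these marker values in the results here was not tested.

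The sequences before the start sites of the called members are shown because both genes fell while these runs differ in base composition. Each run is the 250 bases before the outermost start that RefSeq lists (build GRCh38.p14), read 5′ to 3′ on the gene's strand, with CpG dinucleotides in capitals. The ITGA6 run lies at chr2:172427086-172427335 on the plus strand. A second listed start is 250 bases further on, and the run before it was not examined. The TLN1 run lies at chr9:35732196-35732445 on the minus strand.
ITGA6: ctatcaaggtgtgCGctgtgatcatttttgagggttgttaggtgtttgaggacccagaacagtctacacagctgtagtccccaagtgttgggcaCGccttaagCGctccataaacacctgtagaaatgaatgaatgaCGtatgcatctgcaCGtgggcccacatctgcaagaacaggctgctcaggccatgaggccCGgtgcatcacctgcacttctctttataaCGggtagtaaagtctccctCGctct
TLN1: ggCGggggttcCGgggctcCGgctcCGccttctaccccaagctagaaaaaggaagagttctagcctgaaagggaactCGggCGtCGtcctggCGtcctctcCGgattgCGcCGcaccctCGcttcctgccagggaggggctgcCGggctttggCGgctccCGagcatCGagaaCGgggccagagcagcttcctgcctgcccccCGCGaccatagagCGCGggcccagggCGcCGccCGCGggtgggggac

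The ITGA6 run was 50.8% G and C with 8 CpG, and the TLN1 run 70.8% with 25, beside medians of 65.2% and 21 over the promoters of tested genes. Promoter runs were found for 25 tested members and 10144 tested genes by symbol. The SOX core ACAATG, searched on both strands, was in 0 of the 25 and in 4.83% of all runs. GGAATG, the TEAD core, was in 4 of the 25 on either strand, those of ITGA5, ITGA10, ITGB1 and VCL, and in 9.48% of all. The CArG box, the site of the factor SRF, was in FLNA alone of the 25 and in 0.927% of all. A match is a run of letters and not a bound site, and the SOX9 ChIP libraries were not analysed here.

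Among the laminin-binding alpha chains the members did not share a direction. ITGA6 pairs with beta1 as a laminin receptor and with beta4 in hemidesmosomes, the anchors of epithelial cells to basement membrane. Its implied level was 12875 normalized counts in control cells and 8167 after SOX9 siRNA, around a mean of 10521. The log2 fold change of ITGA6 was -0.66 (SE 0.17), and the DESeq2 adjusted p 0.0103, from the authors' deposited table. ITGA3, the other main laminin receptor chain of epithelia, had implied levels of 43029 and 56471. Its log2 fold change was 0.39 (SE 0.16), with unadjusted and adjusted p of 0.0152 and 0.253 from the authors' deposited table, so it was not called. The intervals of ITGA6 (-0.98 to -0.33) and ITGA3 (0.08 to 0.71) did not overlap, and the difference itself was not tested. ITGA7, the laminin receptor chain of muscle, was sparse, with a mean normalized count of 88.5 and a log2 fold change of 0.32 (SE 0.40) in the authors' deposited table.

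The main fibronectin and collagen receptor chains, ITGA5 and ITGA2, had positive values that were not called. ITGA5, the fibronectin receptor chain, had implied levels of 9097 in control and 13071 after SOX9 siRNA. That is a 1.44-fold value (95% interval 1.09 to 1.89) with unadjusted and adjusted p of 0.00942 and 0.194 from the authors' deposited table. ITGA2, a collagen receptor chain, had implied levels of 9366 and 12855, a 1.37-fold value (1.07 to 1.76) with unadjusted and adjusted p of 0.0131 and 0.234 from the authors' deposited table. ITGA3, ITGA5 and ITGA2 were the 3 members that were higher at an unadjusted p under 0.05. All are alpha chains that pair with beta1, but so are 8 of the 9 tested alpha members, ITGA6 among them. ITGAV, the chain of most RGD receptors, was close to 0 at 0.06 on the log2 scale by the authors' deposited table, with an interval from -0.28 to 0.41. The collagen receptor chains ITGA1 and ITGA10 stood at 0.05 and -0.45 on the log2 scale at mean normalized counts of 29.2 and 144.6, per the authors' deposited table. Their SEs of 0.67 and 0.40 allow changes of over 2-fold in at least 1 direction. PELO, a gene within the ITGA1 span, had a mean normalized count of 2184 by the authors' deposited table, so the ITGA1 count is uncertain.

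The other alpha chains are best known from lymphocytes. ITGAE, the chain that binds E-cadherin, had a log2 fold change of -0.21 (SE 0.20) at a mean normalized count of 822.1 in the authors' deposited table. The kinase gene GSG2, now HASPIN, lies within the ITGAE span in RefSeq and had a mean normalized count of 917.6 and a log2 fold change of -0.38 by the authors' deposited table, so the reads of this pair may not be told apart. ITGA4, a VCAM1 receptor chain, was not tested, with a mean normalized count of 1.03 in the authors' deposited table.

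Beta chains had 0 calls among 7 tested, with a median log2 fold change of 0.07. ITGB1, the common partner of 12 alpha chains, had implied levels of 60743 and 70891 and a log2 fold change of 0.22 (SE 0.15, adjusted p 0.631 in the authors' deposited table). Its interval, from -0.06 to 0.51, lay within a 1.5-fold change. ITGB4, the hemidesmosome partner of alpha6, had implied levels of 2630 and 3225 and a log2 fold change of 0.29 by the authors' deposited table, with an interval from -0.06 to 0.64. ITGB5, which joins alphaV in a vitronectin receptor, stood at -0.07 on the log2 scale by the authors' deposited table (interval -0.40 to 0.26), also within 1.5-fold.

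ITGB3, the beta chain of the classic vitronectin receptor, was the lowest of the beta chains. Its implied levels were 1567 in control and 1070 after SOX9 siRNA, or 68.3% of control (95% interval 47.2% to 98.9%). The unadjusted p of ITGB3 was 0.0433 and the adjusted p 0.415 in the authors' deposited table, so it was not called. ITGB8, which holds latent TGF-beta with alphaV, had a log2 fold change of 0.07 (SE 0.31) by the authors' deposited table. The leukocyte beta chains ITGB2 and ITGB7 had mean normalized counts of 152.0 and 36.0 and stood at 0.39 and -0.49 on the log2 scale per the authors' deposited table, with SEs of 0.35 and 0.58. ITGB7 overlaps ZNF740, which had a mean normalized count of 2450 by the authors' deposited table, so the ITGB7 count is uncertain. ITGB6, an epithelial partner of alphaV, was not tested, at a mean normalized count of 11.3 by the authors' deposited table.

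Set side by side as receptors, 15 of the 24 textbook integrin pairs had both chains tested, 13 of them with both chains among the members. For alpha6beta4 the alpha chain stood at -0.66 and the beta chain at 0.29, a gap of -0.95 on the log2 scale, and for alpha6beta1 the gap was -0.88. These were the widest gaps of any pair plotted, and gaps were not tested. Both rest on the same ITGA6 value, and the next widest gap was 0.84, for ITGA2B with ITGB3. Of the 8 tested alpha partners of beta1, 6 had positive values, beside 6737 of all 14063 tested genes. ITGA6 and ITGA10 were negative, with ITGA1 also negative when centred within bins. For alphaV the beta partners ranged from -0.55 for ITGB3 to 0.22 for ITGB1, around 0.06 for ITGAV itself.

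**Figure D2:**
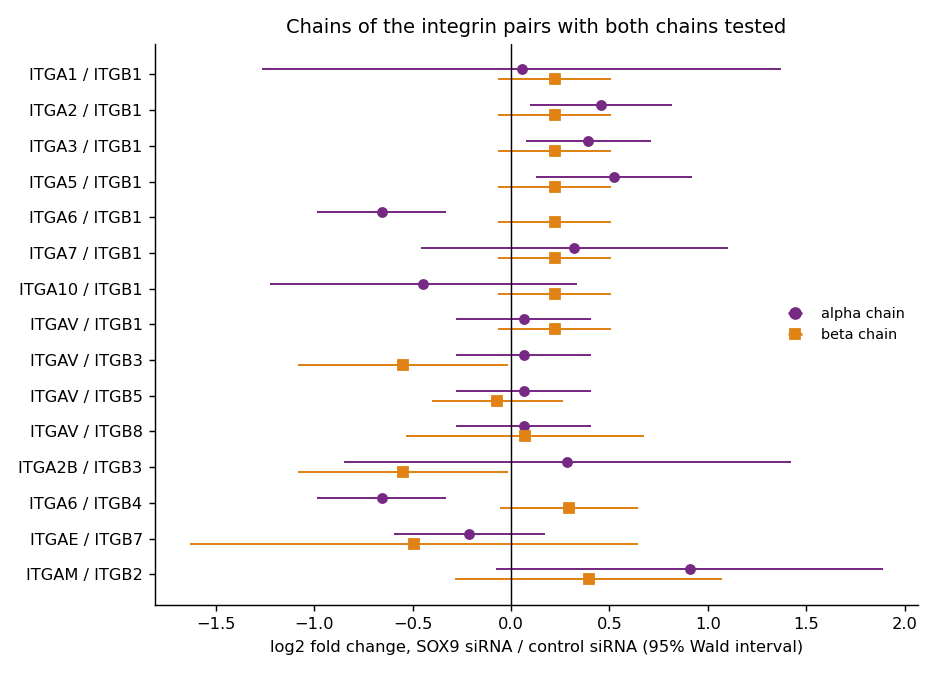
Log2 fold change (SOX9 siRNA over control siRNA, 95% Wald interval) of the alpha chain and the beta chain of each of the 15 pairs with both chains tested. The alpha6 interval lies below 0 in both of its pairs, while the intervals of its partners ITGB1 and ITGB4 reach from -0.06 to above 0.5.

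Talins and kindlins, which bind the beta tail and switch the receptor on, held the other call. TLN1 had implied levels of 20070 normalized counts in control and 13138 after SOX9 siRNA, around a mean of 16604. Its log2 fold change was -0.61 (SE 0.17), and the DESeq2 adjusted p 0.0240, from the authors' deposited table. TLN2, the second talin, stood at 0.05 by the authors' deposited table with an interval from -0.33 to 0.43, which meets the TLN1 interval of -0.94 to -0.28 only at the edge, and the difference was not tested. FERMT2, the kindlin of most adherent cells, had implied levels of 2603 and 2167 and a log2 fold change of -0.26 (SE 0.17, adjusted p 0.597 in the authors' deposited table). FERMT1, the epithelial kindlin, stood at -0.59 by the authors' deposited table with an SE of 0.60 at a mean normalized count of 63.8, and its interval ran from -1.76 to 0.59.

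The TLN1 call depended on how the folds were centred. Folds of abundant genes ran lower: over 4 equal bins of tested genes by mean count, the median log2 fold change was -0.07 in the highest bin, which held 18 tested members, and 0.09 in the lowest. Centred within bins, a setting added after the data were seen, TLN1 stood at -0.54 with an adjusted p of 0.0704 and ITGA6 at -0.58 with 0.0372. Without that centring, 2.39% of all genes in the highest bin were called, 66 of 3516 lower and 18 higher. Beside them, 2 of its 18 members were called, both lower. With it 1 member was called, and the share of all genes called under that setting is not given here.

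**Figure D3:**
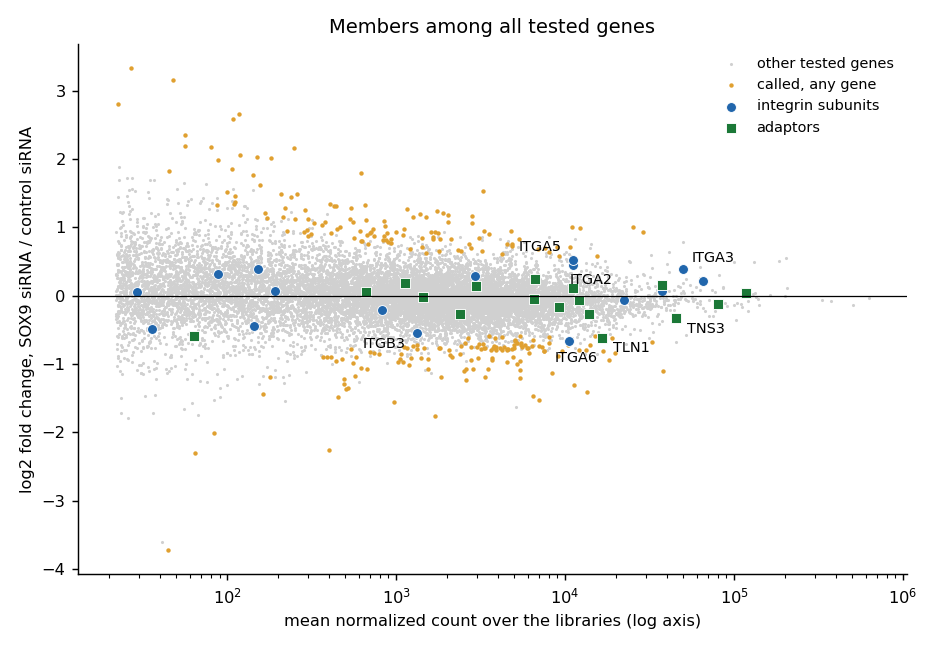
Log2 fold change against mean normalized count (log axis) for all tested genes, with integrin subunits as circles, adaptors as squares and other called genes in orange. The 7 labelled members have an unadjusted p under 0.05, and ITGA6 and TLN1 lie among the called genes on the lower edge of the cloud.

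ILK, a pseudokinase, LIMS1, which encodes PINCH1, and the parvins PARVA and PARVB form the complex that links kindlin-bound integrins to actin. None of the 4 was called, and their log2 fold changes ran from -0.02 for PARVA to 0.24 for LIMS1 in the authors' deposited table. ILK had implied levels of 10635 and 11495, and its interval of -0.19 to 0.41 lay within 1.5-fold, as did those of LIMS1 and PARVA. PARVB stood at 0.19 by the authors' deposited table with an interval from -0.26 to 0.63. LIMS1 has near-identical copies in the genome, so its count is uncertain, and ILK overlaps TAF10, which had a log2 fold change of 0.11 by the authors' deposited table.

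The 3 signalling proteins of the plaque had values below 0 and no call, and BCAR1 turned positive when centred within bins. PTK2, focal adhesion kinase, stood at 89.7% of control (95% interval 67.5% to 119.0%). PXN, paxillin, a scaffold for that kinase, had implied levels of 15210 and 12580 and stood at 82.7% (66.7% to 102.6%), at adjusted p 0.550 from the authors' deposited table. BCAR1, the p130Cas scaffold, stood at 96.5% (77.4% to 120.2%). PTK2 and BCAR1 lay within 1.5-fold of control and PXN reached just past it.

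Actin linkers had 0 calls among 6 tested members, and 5 of the 6 lay within 1.5-fold. VCL, vinculin, which strengthens the talin link under force, had implied levels of 35215 and 39459 and a log2 fold change of 0.16 (SE 0.20) by the authors' deposited table. It overlaps AP3M1, which fell by 0.72 on the log2 scale (adjusted p 0.0391, from the authors' deposited table), and reads of the overlap may not be told apart. ZYX, zyxin, stood at 0.14, ACTN1 at -0.06, ACTN4 at 0.04 and FLNA at -0.12 on the log2 scale, with SEs from 0.15 to 0.17 in the authors' deposited table. ACTN1 and ACTN4 are alpha-actinins, which crosslink actin, and FLNA is filamin A, which binds beta tails in competition with talin. ACTN4, with a mean normalized count of 117320, had an interval from -0.26 to 0.34.

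TNS3, a tensin that binds beta tails in fibrillar adhesions, was the lowest of the tested linkers. Its implied levels were 50791 in control and 40341 after SOX9 siRNA, or 79.4% of control (95% interval 63.3% to 99.7%), with unadjusted and adjusted p of 0.0466 and 0.435 from the authors' deposited table. The tensins TNS1 and TNS4 were not tested, at mean normalized counts of 2.47 and 1.42 by the authors' deposited table, and ITGA11, a collagen receptor chain of fibroblasts, was not tested at 13.2. Every gene without an adjusted p lay at a mean normalized count of 21.93 or below, where no direction can be read.

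**Figure D4:**
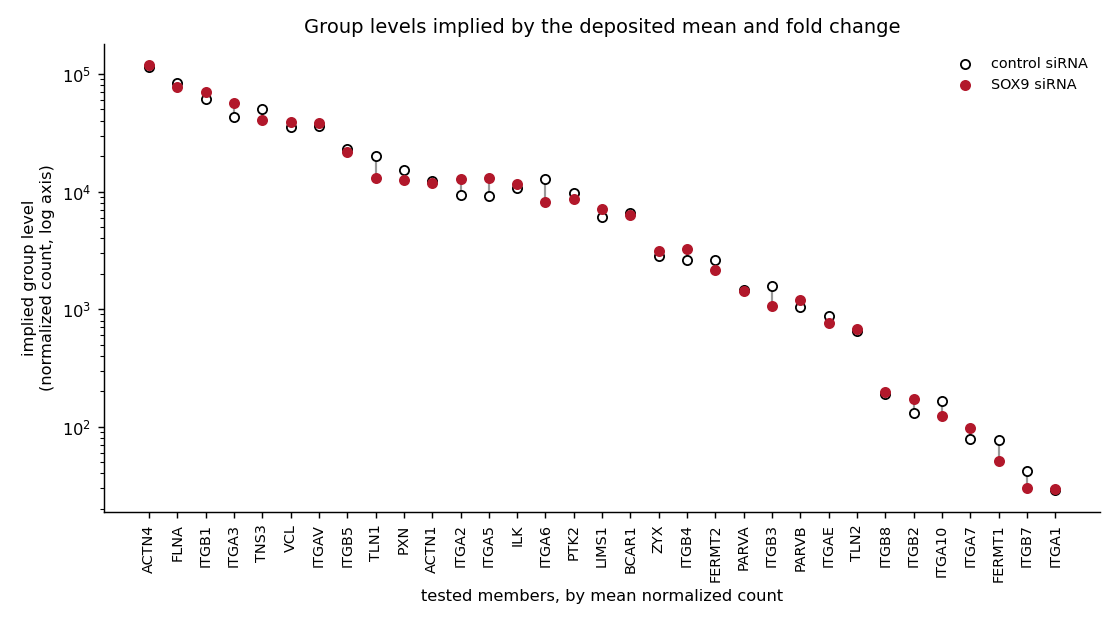
Group levels in normalized counts (log axis) implied by the deposited mean and fold, for the 33 tested members in order of mean normalized count, with control siRNA as open and SOX9 siRNA as filled circles. The filled circle of TLN1 (13138) lies below its open circle (20070) and that of ITGA5 (13071) above (9097), and no error is drawn because the table has no values per library.

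For uncalled members the intervals give the range of folds that fits these libraries. They do not bound the change in separate cultures, because the variation behind them may be technical. Of the 33 tested members, 14 had a 95% interval wholly within 1.5-fold of control, 42.4% beside 40.3% of all tested genes. Intervals narrow as counts rise, and the members are more abundant than most genes. In the highest bin of mean count the shares were 61.1% of its 18 members and 65.9% of all its genes. By class the 14 were 3 of 16 integrin subunits and 11 of 17 adaptors. Adaptors had a median mean normalized count of 9135 and integrin subunits 2123, and their median SEs were 0.17 and 0.20. The 3 integrin chains with such an interval were ITGAV, ITGB1 and ITGB5. In RefSeq 10 of the 38 members overlap another gene that reached 50 in mean normalized count, so their counts are uncertain. They are ITGA1, ITGA7, ITGAE, ITGB4, ITGB7, ILK, PXN, VCL, ZYX and ACTN4, and neither ITGA6 nor TLN1 is among them. ITGA6 does overlap the antisense genes ITGA6-AS1 and PDK1-AS1, for which no value was used here, so their reads may not be told apart.

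Other genes of adhesion, taken from 7 related lists of 157 genes with 139 tested, held 2 genes that rose and 1 that fell. Ligands of integrins had 1 rise and 1 fall among 27 tested genes, beside 1.81% of all tested genes called. Of the 27, 22 had positive values, beside 6737 of 14063 tested genes, and the median log2 fold change was 0.14, beside -0.02. That split was not tested, and its count with folds centred within bins is not given here. CYR61, now CCN1, a matricellular ligand of several integrins, fell to 40.3% of control, from an implied 16039 to 6467. COL1A1, a chain of type I collagen, rose from an implied 301.8 to 595.8, and its adjusted p was 0.0445 in the authors' deposited table. The COL1A1 call was lost when p-values were adjusted over every gene and when folds were centred within bins. This gene is also on the fibroblast marker list, of which 3 of 6 were tested. Of the other fibroblast genes THY1 and PDGFRB stood at mean normalized counts of 177.0 and 32.0 and were not called, at 0.06 and 0.01 on the log2 scale, and COL1A2, DCN and LUM stood at 1.52, 4.37 and 1.72, untested, by the authors' deposited table. MFGE8, an RGD ligand and the uncalled gene with the highest mean count, stood at 0.14, and CTGF, now CCN2, at -1.63 with an SE of 0.75 and adjusted p 0.359, from the authors' deposited table.

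Inhibitors, membrane partners and traffic proteins had 1 rise among 20. PTRF, now CAVIN1, a coat protein of caveolae, rose 2.01-fold (95% interval 1.43 to 2.83), at adjusted p 0.00848 from the authors' deposited table. CAV1, the caveolin of the same pits, stood at 61.0% of control (42.6% to 87.5%) and was not called, at adjusted p 0.168 from the authors' deposited table. CD151, a tetraspanin partner of alpha3 and alpha6 receptors, stood at 0.17 with an SE of 0.17 by the authors' deposited table. The hemidesmosome partners of alpha6beta4 had 0 calls among 4, and PLEC, plectin, which ties beta4 to keratin, stood at 0.25 (SE 0.18) by the authors' deposited table.

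The lists of other adaptors, kinases and GTPase regulators, actomyosin and other integrin subunits had 0 calls. The unadjusted p of the authors' DESeq2 test was under 0.05 for 3 of 33 adaptors, all lower, and for 2 higher and 3 lower of 29 kinases and regulators. It was also under 0.05 for 2 higher and 1 lower of 25 actomyosin genes and for 0 of 2 integrin subunits. Over all tested genes the shares were 4.98% higher and 6.15% lower, and counts this small do not set the lists apart. CDC42, a GTPase of protrusions, stood at -0.41 and ACTG1, cytoplasmic gamma-actin, at 0.11 on the log2 scale in the authors' deposited table. ITGAM, a myeloid integrin chain, stood at 0.91 with an SE of 0.50 by the authors' deposited table. The medians were 0.08 for adaptors, -0.12 for kinases and regulators and 0.06 for actomyosin.

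**Figure D5:**
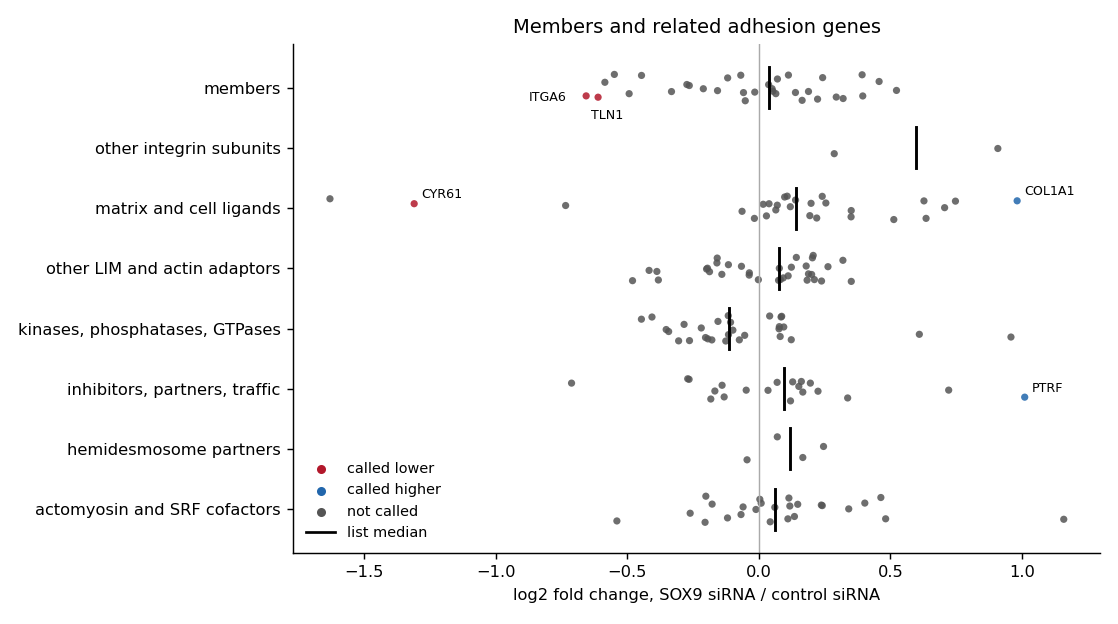
Log2 fold change (SOX9 siRNA over control siRNA) of tested members and of 7 related lists, 1 point a gene with vertical jitter, with list medians as black bars. Called genes are red where lower (ITGA6, TLN1, CYR61) and blue where higher (COL1A1, PTRF), and the members' median lies at 0.04.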

How the data were processed

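Total RNA of 4 PANC-1 samples, 2 per siRNA, was made into stranded libraries and sequenced as read pairs to a stated minimum of 60 M reads each, per the labels' protocols. Tools listed by the submitters' processing notes are DESeq2 1.18.1, featureCounts and HISAT2 2.0.5, and builds listed there are mm10 and hg19, none with a role or settings. For strand, the counting setting was not given in the sources used, so values of overlapping genes are uncertain. The authors' deposited table holds, per the file headers, a mean normalized count (a signal over all libraries after size factors), a log2 fold change with its standard error, a Wald statistic (score), a p-value and an adjusted p-value. Depth per library is not in this table.

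The fit across all genes and its Benjamini-Hochberg adjustment over 14063 genes are the authors' (DESeq2). Computed here, with Python 3.11.15, pandas 2.3.3 and scipy 1.17.1, were 95% Wald intervals (1.96 SE), percent of control, implied group levels (the mean times the number of groups, divided in the ratio of the fold), counts by role, and the alternatives. These were adjustment over every gene or over genes with a mean count of at least 50 or 100, thresholds of 0.1 and 0.01, centring, and a 99% interval. Calling and centring on all tested genes were tested on simulated data with 1 shift common to all genes. Centring within bins, intervals, implied levels, overlaps and promoter runs were not checked in that way. RefSeq tables (GRCh38.p14) gave promoter runs, current symbols and gene overlaps. Named genes were every member, SOX9, and from each related list up to 3 called genes and the uncalled gene with the highest mean count. For the list of other adaptors that gene is not reported here. CTGF, CAV1, the named markers and the overlapping genes were added after their values were seen. The members and lists were chosen with earlier results of these data known.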

Additional observations from a re-analysis of the deposited data

How the results depend on the processing

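No paired analysis was possible because the authors' deposited table has no values per library, and leaving out each replicate could not be run for the same reason. Of 356 values recomputed, 344 kept their call, stayed within their error or, for counts, within 1.5 times. That total says little about stability, because most of the counts were 0 to begin with. Centring moved no member's log2 fold change by more than 0.09. That is below the SE of every tested member, so each was bound to stay within its error. A reversed sign was counted only for members with an unadjusted p under 0.05, and 0 of them reversed. That outcome was fixed beforehand. The value nearest 0 among them, -0.33 for TNS3, lies further from 0 than centring moved any member. At a threshold of 0.01 the members called lower went from 2 to 0, that is 0 laminin-binding alpha chains and 0 talins and kindlins, since the adjusted p was 0.0103 for ITGA6 and 0.0240 for TLN1, and ligands called higher went from 1 to 0. Centring within 4 bins of mean count, added after the data were seen, left 1 member called lower and 0 talins and kindlins (TLN1 adjusted p 0.0704), and 0 ligands called higher. Adjustment over every gene also left 0 ligands higher, because more genes were tested. At a threshold of 0.1, 1 actomyosin gene was lower, PPP1R12A. Over all the alternatives the adjusted p of ITGA6 ran from 0.00934 to 0.0372 and that of TLN1 from 0.0215 to 0.0704. Centring on all tested genes turned the sign of 0 members, and centring within bins that of 6 with values near 0: ITGA1, ITGB5, ITGB8, PARVA, BCAR1 and ACTN1. Precision for members with low counts is limited by depth, which is unknown per library.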
